A study of Callithrix jacchus with 4 samples.

Results

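Translation factors are the soluble proteins that load ribosomes onto mRNA and move them along it. Their genes were picked from a table of 35205 gene rows by symbol, taking every name that starts with EIF1 to EIF6 or with EEF1 or EEF2. This gave 63 genes, of which 61 had enough counts to be tested. The name pattern also takes genes that are not factors themselves, so the 63 were sorted by role into 6 elongation factors, 12 subunits of EIF3, 31 other initiation factors, and 14 regulators, modifying enzymes and other proteins. The elongation factors and EIF3 subunits together are called TOP-type factors here, 18 genes in all. The name refers to the terminal oligopyrimidine tract, a run of C and T bases at the very start of an mRNA. The label was given by gene family, and no transcript start was examined. EIF3C and EEF1AKMT4 were not analysed here.

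Brain tissue was taken from common marmosets, a small New World monkey (Callithrix jacchus), at postnatal day 5. The study's design describes the tissue as forebrain, with cortex, striatum and hippocampus, while the label of each library says only brain. Of the 4 RNA-seq libraries, 2 came from wild-type marmosets and 2 from FMR1 mutant marmosets made with CRISPR/Cas9. The sources used here give neither the exact edit nor sex or litter, and do not say whether each library came from its own animal. The p-values below therefore rest on the spread between these 4 libraries, which may be partly technical. The test takes each gene's spread largely from the trend over all genes. The product of FMR1, FMRP, binds RNA and acts as a brake on the translation of many neuronal mRNAs.

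Initiation begins when EIF2 brings the first tRNA to the small ribosomal subunit, with EIF1, EIF1A, EIF5 and the large EIF3 complex also bound. The EIF4 proteins recognise the cap of the mRNA and unwind its leader. EEF1 then delivers each aminoacyl-tRNA and EEF2 moves the ribosome on by a codon. Messenger RNAs with a TOP tract encode all or nearly all ribosomal proteins and many elongation factors and EIF3 subunits, and their translation is controlled jointly by mTOR through the protein LARP1. In neurons and muscle the elongation factor EEF1A2 replaces its close relative EEF1A1 as cells mature.

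Libraries held 12331639 to 13455702 counts and detected 22601 to 22946 genes. FMR1 itself was counted 1144 and 966 times in the wild-type libraries and 1062 and 1603 times in the mutant libraries, so its level does not check the labels. Brain markers were present in every library: the summed level of 10 genes of mature neurons was 7299 to 7556 CPM, a unit of counts relative to the scaled library size. Some libraries stood apart in markers of other regions. TCF7L2, a thalamic transcription factor, was at 96.0 CPM in wild-type replicate 1 and 8.98 to 11.3 CPM in the others. TTR, a choroid plexus protein, was at 94.97 CPM in mutant replicate 1 and 0.603 to 7.25 CPM in the others. The other choroid plexus markers read did not move together. KCNJ13 was also highest in mutant replicate 1, at only 3.28 CPM. FOLR1 was highest in wild-type replicate 1, at 5.36 CPM, and was at 3.05 CPM in mutant replicate 1. The mutant libraries held less oligodendrocyte RNA, with 7 markers summing to 3383 and 3353 CPM in wild-type and to 1285 and 1234 CPM in mutant libraries.

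The comparison asked whether transcripts of the translation machinery differed between FMR1 mutant and wild-type brain. EEF1A1 and EEF1G, a pair of elongation factors, rose in the mutant libraries by 1.44-fold and 1.37-fold. These were the 2 of 61 tested members that passed an adjusted p of 0.05 (edgeR quasi-likelihood test with Benjamini-Hochberg adjustment over 16956 genes). No member passed as lower, while 39 of the 61 had a higher and 22 a lower estimate in the mutant libraries. Rose and fell are used here for genes that passed. Among all genes tested, 0.661% passed as higher and 1.57% as lower. Most other TOP-type factors had higher values in the mutant libraries without passing. In whole tissue, more RNA per cell and more cells of a type that is rich in it cannot be told apart.

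EEF1A1 brings aminoacyl-tRNA to the ribosome in most dividing and immature cells. Replicates 1 and 2 were at 2529 and 2103 CPM in wild-type and at 3530 and 3149 CPM in mutant libraries, the order used throughout. Both mutant libraries lay above both wild-type libraries. The log2 fold change, mutant over wild-type throughout, was 0.53 (SE 0.11, 95% interval 0.30 to 0.76, edgeR adjusted p = 0.00567). Without wild-type replicate 2, the library with the lowest EEF1A1, it was 0.40 and did not pass (edgeR adjusted p = 0.158). EEF1A1 has many processed pseudogenes, and the sources used here do not say how reads that match such copies were counted.

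EEF1A2, which does the same work in mature neurons and in muscle, showed no such difference. It was at 1007 and 1100 CPM in wild-type and at 1112 and 1012 CPM in mutant libraries, so the groups overlapped. The log2 fold change was 0.01 (SE 0.11), with a 95% interval of -0.21 to 0.24. Within each library, EEF1A1 had 2.51 and 1.91 counts per EEF1A2 count in wild-type and 3.17 and 3.11 in mutant libraries. These ratios did not overlap, but with 2 libraries against 2 an exact two-sided permutation test cannot go below 0.333. Skeletal and heart muscle genes, which would mark another source of EEF1A2, summed to 7.69 to 10.8 CPM over 3 markers, and the groups overlapped.

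The exchange factor that reloads EEF1A with GTP is built from EEF1B2, EEF1D and EEF1G. EEF1G, its scaffold subunit, was at 313 and 269.7 CPM in wild-type and at 423 and 376 CPM in mutant libraries. Its groups did not overlap, and it rose by 0.46 on the log2 scale (SE 0.12, edgeR adjusted p = 0.0266). The call was lost without wild-type replicate 2 (0.36, edgeR adjusted p = 0.271) and without mutant replicate 1 (0.37, edgeR adjusted p = 0.131).

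EEF1B2, a catalytic subunit of that complex, was at 174 and 139 CPM in wild-type and at 239 and 187 CPM in mutant libraries. Its log2 fold change of 0.44 (SE 0.13) was close to that of EEF1G but did not pass (edgeR adjusted p = 0.0782). It did pass without a low-count filter (edgeR adjusted p = 0.0138), but not by DESeq2 (adjusted p = 0.124) or limma-voom (adjusted p = 0.0834). Without wild-type replicate 1 or mutant replicate 2 its log2 fold change was 0.61. Without wild-type replicate 2 it was 0.29, and without mutant replicate 1 it was 0.26. EEF1D, the other catalytic subunit, was at 79.96 and 82.1 CPM in wild-type and at 94.4 and 93.6 CPM in mutant libraries (0.21, SE 0.12, edgeR adjusted p = 0.473).

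EEF2 moves the ribosome along the mRNA. It was at 2096 and 2013 CPM in wild-type and at 2460 and 2246 CPM in mutant libraries, again without overlap. The log2 fold change was 0.20 (SE 0.11, 95% interval -0.02 to 0.42) and did not pass (edgeR adjusted p = 0.449). Its kinase EEF2K, which switches EEF2 off and is active at synapses, was counted only 26, 19, 10 and 27 times, wild-type libraries first. At this depth no difference in EEF2K was detected, and its 95% interval was wide, from -1.36 to 0.68 on the log2 scale.

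**Figure D1:**
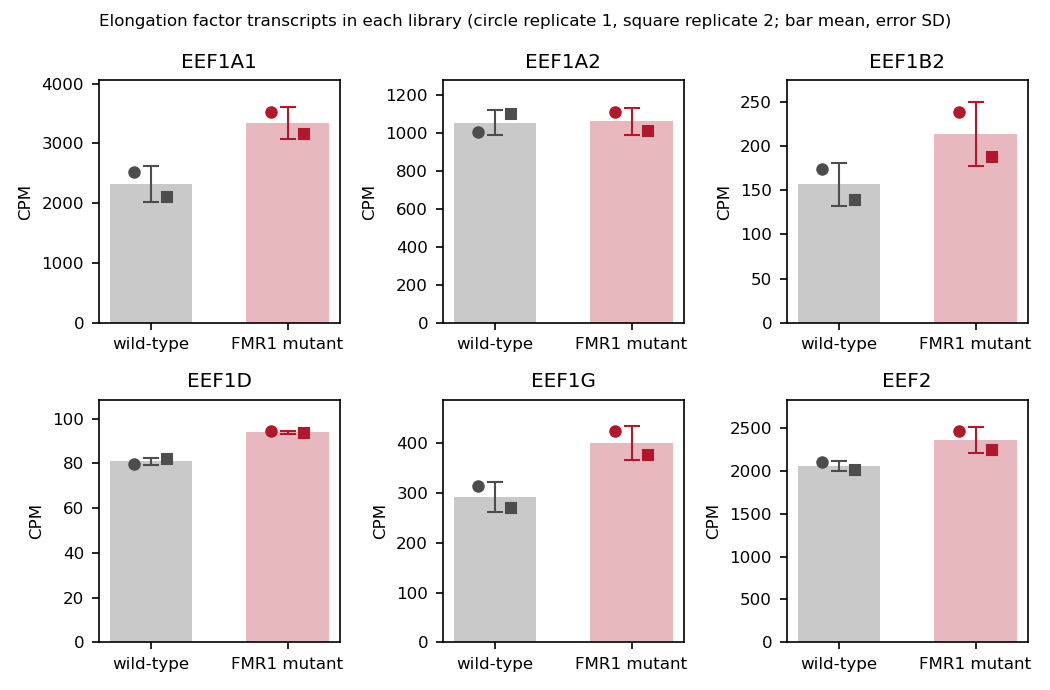
CPM (vertical axes, each from 0) of the 6 elongation factor genes in wild-type and FMR1 mutant libraries, with circles for replicate 1, squares for replicate 2, bars for the mean and error bars for the SD of 2 libraries. The mutant points lie above the wild-type points in 5 of the 6 panels, and those of EEF1A2 overlap.

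EIF3 is the largest initiation factor and holds the small ribosomal subunit ready for mRNA. Of its 12 measured subunits, 10 had a positive log2 fold change and 2 a negative one, with a median of 0.19 and a range of -0.15 to 0.38. None passed by edgeR, DESeq2 or limma-voom, while 5 were higher and 0 lower at an unadjusted p under 0.05. Over all genes tested, 5.64% were higher and 7.75% lower at that level, which the like counts below are to be read against. In 8 of the 12 both mutant libraries lay above both wild-type libraries. Among all genes tested, 21.4% were separated in this way as higher and 21.8% as lower.

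EIF3L had the smallest p of the subunits, at 233 and 201 CPM in wild-type and 292 and 273 CPM in mutant libraries (0.38, SE 0.12, edgeR adjusted p = 0.0820). EIF3M was at 57.0 and 47.7 CPM in wild-type and at 68.5 and 65.1 CPM in mutant libraries (0.35, SE 0.13). EIF3E was at 90.9 and 79.0 CPM against 111.8 and 99.1 CPM (0.31, SE 0.13). The groups of all 3 were separated. EIF3B, which anchors EIF3G and EIF3I, went the other way: it was at 98.5 and 97.0 CPM in wild-type and at 86.7 and 89.7 CPM in mutant libraries (-0.15, SE 0.12, edgeR adjusted p = 0.661).

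The subunits were also split into sets that follow the known architecture of the complex only in part, a choice made after the values were seen. EIF3E, F, H, K, L and M form the core of the complex together with EIF3A and EIF3C, and are absent from the EIF3 of budding yeast. Their groups were separated in all 6 cases, with log2 fold changes of 0.17 to 0.38, and their summed level was 674 and 602.2 CPM in wild-type and 836 and 751 CPM in mutant libraries. The other measured subunits, EIF3A, B, D, G, I and J, had changes of -0.15 to 0.21. Of these, 2 were separated as higher, 1 was separated as lower and 3 overlapped. EIF3A was put in this set although it belongs to the core. Their sum was 662 and 615 CPM in wild-type and 659 and 658 CPM in mutant libraries. For EIF3A, the largest subunit, the values were 185 and 158 CPM against 160.2 and 187 CPM, which overlapped (0.02, SE 0.12). The core subunits as a whole were thus not all separated. The difference between the sets was not tested.

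The other initiation factors were closer to no change. Of 29 tested, 18 had a positive and 11 a negative log2 fold change, with a median of 0.06 against 0.21 for the 18 TOP-type factors and 0.00 for all genes tested. None passed by edgeR, DESeq2 or limma-voom, and 2 were higher and 0 lower at an unadjusted p under 0.05. Both mutant libraries were above both wild-type libraries in 7 of the 29 and below them in 5. The same counts were 13 and 1 of 18 for TOP-type factors. As a share of all counts, TOP-type factors took 0.754% and 0.690% in wild-type and 0.932% and 0.849% in mutant libraries, while the other initiation factors took 0.495% and 0.489% against 0.527% and 0.511%.

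**Figure D2:**
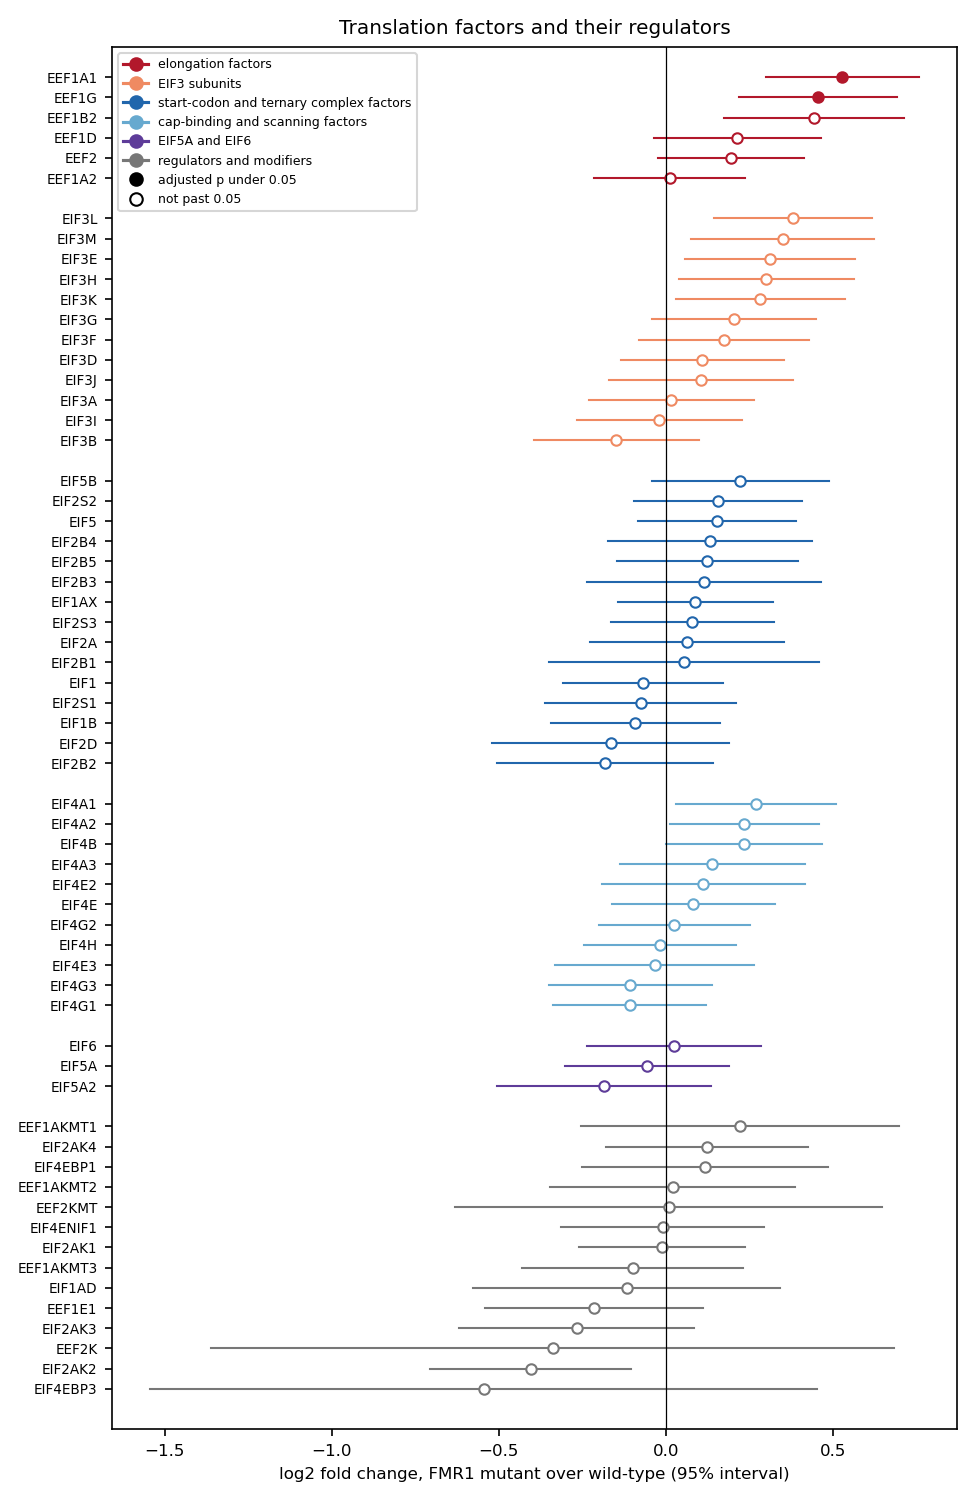
Log2 fold change, FMR1 mutant over wild-type (horizontal axis), with its 95% interval for each of the 61 tested members, in rows grouped and coloured by role. Filled points are the 2 members past an adjusted p of 0.05, EEF1A1 and EEF1G, and TOP-type factors lie mostly right of 0, while the classes below them are spread around it.

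Among the factors that read the start codon and carry the first tRNA, 15 of 16 were tested and 10 had a positive value, with a median of 0.08 and a range of -0.18 to 0.22. EIF5B, which joins the large subunit, had the smallest p of these, at 103 and 91.2 CPM in wild-type and at 127 and 98.98 CPM in mutant libraries (0.22, SE 0.13, edgeR adjusted p = 0.479). Its groups overlapped. EIF5, which triggers GTP hydrolysis by EIF2, was at 215 and 192 CPM against 235 and 217 CPM (0.15, SE 0.12). EIF2S2, the beta subunit of EIF2, was at 84.7 and 80.8 CPM against 95.4 and 88.9 CPM (0.16, SE 0.12).

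The start-codon gatekeepers EIF1 and EIF1B had small negative values. EIF1 was at 403 and 425 CPM in wild-type and at 436 and 353 CPM in mutant libraries (-0.07, SE 0.12), so its mutant libraries took both extremes. EIF1B was at 89.5 and 84.7 CPM against 84.4 and 79.2 CPM (-0.09, SE 0.12). All 5 subunits of EIF2B, the exchange factor of EIF2 whose loss causes a disease of white matter, were tested. Their log2 fold changes ran from -0.18 for EIF2B2 to 0.13 for EIF2B4. EIF1AY was counted 0 times in every library, which allows up to 3 counts, or 0.223 to 0.244 CPM.

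Among 11 tested factors of cap binding and scanning, 7 had a positive value, with a median of 0.08 and a range of -0.11 to 0.27, and the helicases EIF4A1 and EIF4A2 had the highest values. EIF4A1, the general mRNA helicase, was at 236 and 230 CPM in wild-type and at 308 and 254 CPM in mutant libraries (0.27, SE 0.12, edgeR adjusted p = 0.293). Its brain-rich relative EIF4A2 was at 799 and 853 CPM against 1008 and 936 CPM (0.24, SE 0.11, edgeR adjusted p = 0.342). EIF4B, which stimulates both helicases and whose mRNA is itself a known TOP mRNA, was at 188 and 197 CPM against 220 and 233 CPM (0.23, SE 0.11). All 3 were separated between groups and none passed. EIF4A3, the helicase of the exon junction complex, had overlapping groups and a value of 0.14 (SE 0.14). The proportion of EIF4A1 to EIF4A2 overlapped between groups: EIF4A1 had 0.296 and 0.269 counts per EIF4A2 count in wild-type and 0.306 and 0.271 in mutant libraries.

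The cap-binding protein EIF4E was at 109 and 101 CPM in wild-type and 111.2 and 111.4 CPM in mutant libraries, a log2 fold change of 0.08 (SE 0.12). Its relatives EIF4E2, a repressor that competes for the cap, and EIF4E3 had overlapping groups, with values of 0.11 (SE 0.15) and -0.03 (SE 0.15). EIF4E1B, an oocyte form, was counted 0, 2, 2 and 1 times and was not tested. Scaffold proteins of the EIF4G family also moved little. EIF4G1 was at 300.0 and 294 CPM against 269.9 and 281.5 CPM (-0.11, SE 0.11), with both mutant libraries below both wild-type libraries. EIF4G2 and EIF4G3 had overlapping groups, at 0.03 (SE 0.11) and -0.11 (SE 0.12).

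EIF5A, the factor that carries the hypusine residue and helps ribosomes past difficult stretches, was at 147 and 156 CPM in wild-type and 158 and 134 CPM in mutant libraries (-0.06, SE 0.12). EIF5A2 was at 28.7 and 28.7 CPM against 26.8 and 23.7 CPM (-0.18, SE 0.16), with separated groups. EIF6, which keeps large ribosomal subunits apart from small ones, had overlapping groups and a log2 fold change of 0.03 (SE 0.13). The ratio of EIF5A to EIF5A2 counts was 5.12 and 5.43 in wild-type and 5.88 and 5.63 in mutant libraries.

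Regulators and modifying enzymes were on both sides of 0. Of the 14, 5 had a positive and 9 a negative log2 fold change (median -0.06). None passed by edgeR, DESeq2 or limma-voom, and 0 were higher and 1 lower at an unadjusted p under 0.05. That one was EIF2AK2, also called PKR, a kinase that shuts down EIF2 on sensing double-stranded RNA. It was at 45.8 and 37.5 CPM in wild-type and at 31.4 and 31.5 CPM in mutant libraries (-0.40, SE 0.15, edgeR adjusted p = 0.172).

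The other kinases of EIF2 did not separate the groups. EIF2AK3, or PERK, the sensor of stress in the endoplasmic reticulum, was at 27.5 and 21.1 CPM in wild-type and 18.7 and 21.7 CPM in mutant libraries (-0.27, SE 0.17). EIF2AK1, the haem-regulated kinase, had a value of -0.01 (SE 0.12). EIF2AK4, or GCN2, the sensor of amino acid shortage, had a value of 0.12 (SE 0.15). EEF1E1, a scaffold of the complex of tRNA synthetases and not itself classed as an elongation factor, was at 29.9 and 25.7 CPM against 24.7 and 23.4 CPM (-0.21, SE 0.16). EIF4EBP1, which blocks EIF4E until mTOR phosphorylates it, was at 16.8 and 15.7 CPM against 18.1 and 17.1 CPM (0.12, SE 0.18). The enzymes that methylate EEF1A, EEF1AKMT1, EEF1AKMT2 and EEF1AKMT3, had overlapping groups and values of 0.22, 0.02 and -0.10. EIF4EBP3, a relative of EIF4EBP1 counted 13 to 30 times per library, had the lowest log2 fold change of all 61 tested members, with a wide error (-0.55, SE 0.49).

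The difference between classes followed single libraries as well as groups. For each tested gene, log2(CPM + 0.5) was centred on its mean over the 4 libraries, and the median was taken over each class. For TOP-type factors it was -0.06 and -0.16 in wild-type and 0.18 and 0.05 in mutant libraries, replicate 1 first. The step between the groups, from wild-type replicate 1 to mutant replicate 2, was 0.114. That is about as large as the steps within the groups, which were 0.0982 in wild-type and 0.133 in mutant libraries. For the other initiation factors the medians were 0.00, -0.03, 0.06 and -0.01 in the same order, and the groups overlapped.

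Mutant replicate 1 was the highest and wild-type replicate 2 the lowest library for 11 of 18 TOP-type factors (61.1%), for 7 of 29 other initiation factors (24.1%) and for 9.87% of all genes tested. Subtracting the median of the other initiation factors from that of the TOP-type factors within each library gave -0.07 and -0.13 in wild-type and 0.12 and 0.06 in mutant libraries. On this scale the step between the groups, 0.126, was larger than those within them, 0.0662 and 0.0603. The median log2 fold change of TOP-type factors was 0.14 without mutant replicate 1 and 0.21 without wild-type replicate 2, and 0.26 and 0.28 without wild-type replicate 1 and mutant replicate 2.

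**Figure D3:**
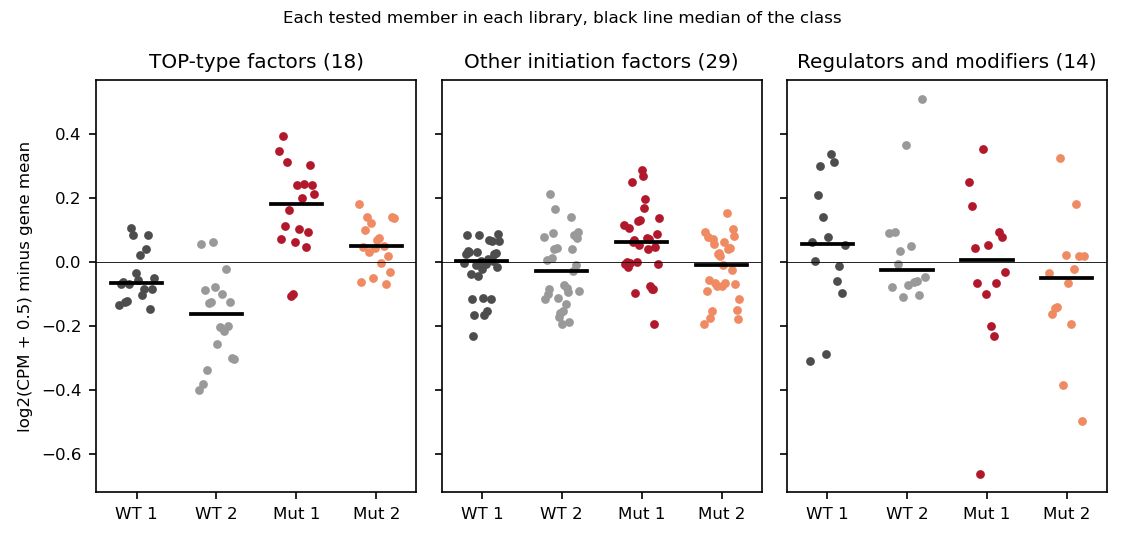
Log2(CPM + 0.5) minus the gene's mean over 4 libraries (vertical axis) for each tested member in wild-type (WT) and FMR1 mutant (Mut) replicates 1 and 2, in panels for the 18 TOP-type factors, 29 other initiation factors and 14 regulators and modifiers. Black lines are class medians, which run from -0.16 to 0.18 in the first panel and stay between -0.03 and 0.06 in the second.

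Cell type markers also differed between the groups. Markers of newborn neurons, of which 8 of 9 had a row, summed to 2315 and 1993 CPM in wild-type and 2701 and 2683 CPM in mutant libraries. Wild-type replicate 2, the lowest in TOP-type factors, was again the lowest. The mutant libraries did not repeat the TOP-type order as clearly. Between their centred medians the step was 0.0028 for these markers, against 0.133 for TOP-type factors. Over the 8 markers, 2 rose and 0 fell, and the median log2 fold change was 0.37. Of 10 mature neuron markers, 3 fell and 0 rose (median -0.11), and 6 were separated as lower. Those that fell were the neurofilaments NEFL (-0.49, SE 0.12) and NEFM (-0.48, SE 0.12) and the GABA-making enzyme GAD2 (-0.46, SE 0.12). On the other side, 2 of the 10 had a positive value. STMN2 was separated as higher (0.31, SE 0.11) but did not pass (edgeR adjusted p = 0.141). The summed level of the list given above was similar in both groups. All 7 oligodendrocyte markers fell (median -1.41), as did 1 of 3 precursor markers (median -0.44), 1 of 6 astrocyte markers (median -0.31) and 2 of 6 microglial markers (median -0.57). The part of these cell types in the values of the translation factors was not tested.

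Other genes of translation were read from lists that hold no member. The first list held 77 genes taken by symbol as cytosolic ribosomal proteins, whose mRNAs are the classic TOP mRNAs. It also took the paralog RPL7L1, which did not pass (0.13, SE 0.13). Of the 77, 10 rose, 1 fell and 66 did not pass. The median log2 fold change was 0.32, close to the 0.33 of the 6 elongation factors. RPL4 rose by 0.58 (SE 0.11), RPL13A by 0.54 (SE 0.12) and RPL5 by 0.53 (SE 0.12). RPL34 fell by 0.48 (SE 0.13) and was the single member of that list with a negative value. It passed neither by DESeq2 nor by limma-voom. The library order was sharper in this list: mutant replicate 1 was highest and wild-type replicate 2 lowest for 69 of the 77 (89.6%), and 1 gene passed as higher without wild-type replicate 2.

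TOP mRNAs that encode neither ribosomal proteins nor members of the set were also on the higher side. All 11 had a positive log2 fold change (median 0.27), and in 10 the groups were separated, with 2 risen and 0 fallen. PABPC1, the cytoplasmic poly(A)-binding protein, was at 346 and 321 CPM in wild-type and at 443 and 449 CPM in mutant libraries (0.42, SE 0.11, edgeR adjusted p = 0.0359). VIM, an intermediate filament of progenitors and glia, rose by 0.44 (SE 0.12, edgeR adjusted p = 0.0481). PABPC1 did not pass without wild-type replicate 1 (edgeR adjusted p = 0.0940), wild-type replicate 2 (0.241) or mutant replicate 2 (0.0850). VIM did not pass by DESeq2 (0.0746) or limma-voom (0.0692), nor without wild-type replicate 1 (edgeR adjusted p = 0.159), wild-type replicate 2 (0.114) or mutant replicate 1 (0.524).

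Factors of termination, recycling and poly(A) binding had 1 of 11 risen, PABPC1 again, and a median of 0.11. The release factor ETF1, which reads stop codons, had a value of 0.00 and its partner GSPT1 of 0.08. Cytosolic aminoacyl-tRNA synthetases and their scaffolds, 22 genes, had a median of 0.04, and 0 passed by edgeR, DESeq2 or limma-voom (3 higher and 0 lower at an unadjusted p under 0.05). LARS1, the leucine synthetase, had the smallest p of them, at 76.9 and 77.3 CPM in wild-type and 102.0 and 103.7 CPM in mutant libraries (0.42, SE 0.12, edgeR adjusted p = 0.0638). Its libraries agreed closely within each group. Mitochondrial translation factors, 8 genes tested, had a median of 0.11 with 0 passing by any of these tools and 0 at an unadjusted p under 0.05, and MTIF2 had the smallest p (0.29, SE 0.18).

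Pathways that control these factors were read in the same way. Of 16 genes of mTOR and cap signalling, 13 had a negative and 3 a positive value (median -0.11). None passed by edgeR, DESeq2 or limma-voom, and 2 were lower and 0 higher at an unadjusted p under 0.05. PDCD4, which holds the helicase EIF4A1 inactive, had the smallest p, at 28.7 and 30.1 CPM in wild-type and 22.8 and 22.3 CPM in mutant libraries (-0.38, SE 0.16, edgeR adjusted p = 0.251). Among 12 tested targets of the integrated stress response, which the EIF2 kinases start, 5 had a positive and 7 a negative value (median -0.04). None passed by these 3 tools and 1, SESN2, was lower at an unadjusted p under 0.05 (-0.40, SE 0.18, edgeR adjusted p = 0.289).

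**Figure D4:**
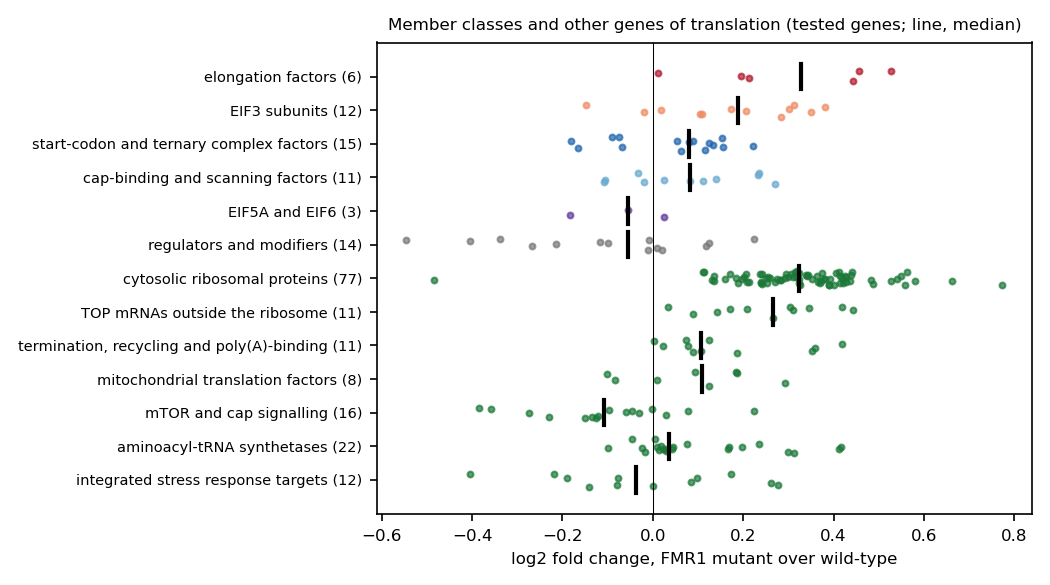
Log2 fold change, FMR1 mutant over wild-type (horizontal axis), of each tested gene (points) in the 6 classes of members and 7 lists of other translation genes (rows, with the number tested), with black lines for medians. Elongation factors, EIF3 subunits, ribosomal proteins and other TOP mRNAs have medians of 0.19 to 0.33, and mTOR and cap signalling genes lie mostly left of 0.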

How the data were processed

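RNA-seq was carried out on 4 marmoset brain libraries. Per the labels' protocols, DNase-treated RNA was selected for poly(A) and made into directional libraries. Trimmomatic 0.38 and STAR 2.7.10a are named in the submitters' processing notes. Which tool, annotation, build and strand setting gave the counts is not stated in the sources used here. Raw counts per gene, 35205 rows, are what the authors deposited. Each column was matched to its library by name.

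Counts were tested in R 4.3.3 with edgeR 4.0.16: filterByExpr at a minimum count of 10, TMM scaling and the quasi-likelihood test (robust = TRUE), with Benjamini-Hochberg adjustment over all 16956 genes tested. CPM are TMM-scaled, and SE is the log2 fold change divided by the square root of F. Total counts were 12331639 to 13455702 per library. Replicates differed by more than counting noise (chi-square per degree of freedom 7.28 and 6.90), so each counted once. The fit has 2 residual degrees of freedom per gene, to which the test adds a median of 31.6 from the spread over all genes. On simulated counts for the same 16956 genes it recovered 32.7% of changes of 0.5, 64.4% of 1 and 94.3% of 2 on the log2 scale, with 4 false calls among 135. Each simulated gene was given exactly the spread of the trend over all genes and was drawn independently, a setting that favours the test. How far these rates hold for the real libraries, where most ribosomal protein genes shared a library order, was not tested.

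Members and lists were chosen with earlier results of these data known, so no class or list was tested as a set. Members named are those past the threshold, per class the 3 of smallest p and the one of highest CPM, and sets of paralogs and kinases; other genes are named by smallest p within their list. ETF1, GSPT1, EEF1D, EIF4EBP1, EIF2B2, EIF2B4, EIF4A3, EIF4EBP3, EEF1AKMT1 to EEF1AKMT3, EIF3 subunits outside the rule, the untested members, RPL7L1 and RPL34 were added after their values were seen. Of the rows with matching names, 1 is not reported here. Alternatives were RLE and upper quartile scaling, DESeq2 1.42.0 on all rows, limma-voom (limma 3.58.1), a non-robust fit, filters of none and of 1 CPM on average, a block for replicate number, leaving out each library, an adjusted p of 0.1, and other ways to class members.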

Additional observations from a re-analysis of the deposited data

How the results depend on the processing

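EEF1A1 passed in 11 and EEF1G in 10 of 12 other fits (scaling, tool, filter, block or 1 library left out). Leaving out 1 library, between 0 and 3 members passed as higher. The 0, without wild-type replicate 2, stood beside 2 higher and 2 lower at an unadjusted p under 0.05 by edgeR, and 1 passed without mutant replicate 1. Without a low-count filter 4 passed, EEF1B2 and EIF3L (edgeR adjusted p = 0.0487) joining, and 4 at an adjusted p of 0.1, against 2. A lone library in a group was assumed to vary like the others. Over all genes, replicate numbers did not pair the libraries: the deviations of same-numbered libraries correlated at 0.0173. In TOP-type factors and ribosomal proteins, though, replicate 1 had the higher centred median in both groups. For ribosomal proteins these were -0.08 and -0.25 in wild-type and 0.32 and 0.02 in mutant libraries. Whether the replicate number marks a pair for such genes was not tested. With that number as a block, EEF1B2 passed as well (edgeR adjusted p = 0.0254), and 20 ribosomal protein genes rose, against 10.

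Over all genes, against 112 higher and 266 lower, the counts were 194 and 439 without a low-count filter and 216 and 408 at an adjusted p of 0.1. DESeq2 called 164 as lower. With 1 library left out they ran from 99 to 171 and from 215 to 400. Ribosomal protein genes risen numbered 27 without a filter, 27 at 0.1 and 1 to 37 with 1 library left out, and 0 fell by DESeq2, by limma-voom, or without wild-type replicate 1 or mutant replicate 2. Other TOP mRNAs risen numbered 1 by DESeq2, limma-voom and a non-robust fit, and 0 to 1 with 1 library left out. Termination factors risen numbered 0 to 1 in the same fits. Of the synthetases, 1 (LARS1) passed without a filter and 1 at 0.1.

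The median of the other initiation factors ran from 0.00 (-0.0001756, without wild-type replicate 2) to 0.0838 when 1 library was left out, and TOP-type minus other initiation factors from 0.12 to 0.21, against 0.15. With members classed by symbol alone, both class medians and their difference moved by less than the spread between libraries. A minimum of 10 CPM removed no tested member of either class.

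With 1 library left out, 24 of the 61 tested members changed sign in at least 1 fit, none of them called. With all libraries their log2 fold changes were at most 0.339 in size. Of these 24, 11 are among the 31 members named by rule. With 1 library left out, their log2 fold changes ran from -0.0578 to 0.0809 for EEF1A2, -0.23 to 0.0799 for EIF1, -0.0100 to 0.25 for EIF4E2, -0.16 to 0.10 for EIF4E3, -0.0680 to 0.12 for EIF4G2 and -0.25 to 0.0262 for EIF4G3. They ran from -0.18 to 0.0612 for EIF5A, -0.11 to 0.15 for EIF6, -1.19 to 0.19 for EEF2K, -0.0822 to 0.0656 for EIF2AK1 and -0.00508 to 0.24 for EIF2AK4. The cause was not tested. Among tested members, depth limits EEF2K and EIF4EBP3 most, at 10 to 30 counts per library.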
